A study of Mus musculus with 5 samples.

Results

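The 10 genes Igha, Ighm, Igkv8-30, Jchain, Xbp1, Irf4, Prdm1, Sdc1, Tnfrsf17 and Mzb1 of the antibody-secreting program were followed across the arrays of the series. Their members were every probe set whose platform annotation gives 1 of these symbols and no other, which came to 29 of 45037 probe sets, or 10 of 18193 genes with a probe set of their own. The list was chosen from the contrast described here, in which Igha, Jchain and Igkv8-30 were among the largest falls and Ighm was also lower. All values of the 10 genes are therefore given as a description, and no test of them is used. RNA came from mouse KLS cells, which carry c-Kit and Sca-1 and lack lineage markers, a sorted bone marrow fraction that holds haematopoietic stem cells and early progenitors. The control group, which the study titled wild type, had the genotype Rb +/+ p130 +/+ p107+/-, so its 2 arrays carried 1 inactive p107 allele. The other group, 3 arrays, was Rb -/- p130 -/- p107-/- and is called deficient. The labels give 1 protocol for both groups: recombination with the inducible Mx1-Cre system at 6 weeks of age and sorting 2 months later. The study hybridised 6 arrays and set 1 aside for high background and unusual control probe sets. The Mx1 promoter answers to interferon and is active in many blood cell types and other tissues, so recombination is not limited to the sorted cells.

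Plasma cells are the end stage of the B cell lineage and secrete antibody in bulk. In them IRF4 and BLIMP-1 (the product of Prdm1) switch off the B cell program, XBP1 enlarges the secretory apparatus, and the heavy chain, light chain and joining chain are assembled in the endoplasmic reticulum with helpers such as MZB1. Bone marrow houses long-lived plasma cells, whose surface carries syndecan-1 (Sdc1) and BCMA (Tnfrsf17). KLS cells are sorted to lack mature lineage markers, and the sources used here do not name the antibodies of that gate.

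Levels below are log2 of the deposited intensity, written as mean ± SD over 2 control or 3 deficient arrays, and differences are deficient minus control on the log2 scale with the standard error of the limma fit. The median probe set read between 4.71 and 4.74 on the 5 arrays, and levels near it are dim. The labels do not say whether arrays came from separate animals, so p-values measure the spread between these arrays, which may be technical. Of the inactivated genes, the brightest probe set of Rbl1 (p107) read 7.75 ± 0.83 in controls and 4.71 ± 0.45 in deficient arrays (limma adjusted p = 0.0513), while the groups overlapped for those of Rb1 (difference -0.36, SE 0.33) and Rbl2 (-0.46, SE 0.24). Nothing here places those probes inside or outside the deleted parts. Of 8 measured genes of a KLS marker list, Cd34 (11.95 and 11.98), Hoxa9 (11.40 and 11.52) and Kit (10.95 and 11.02) had like means in controls and deficient arrays. Not all did: Procr (10.49 and 8.87) lay below both controls on all deficient arrays and Gata2 (10.32 and 10.80) above both. Xist, transcribed in female cells, read 9.31 on control 2 and 12.42 on deficient 2 and between 3.44 and 3.73 on the other arrays, whereas the Y-linked Eif2s3y read 3.50 on deficient 2 and between 9.81 and 10.37 elsewhere. Control 2 thus read high for both.

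Immunoglobulin A heavy chain and joining chain transcripts were bright on both control arrays and no higher than 5.89 on any deficient array. For Igha, the constant region of the IgA heavy chain, the probe set 1421653_a_at read 12.87 and 13.20 in controls and 4.75, 4.92 and 5.06 in deficient arrays. In intensity that is 7505 and 9429 against 26.9, 30.4 and 33.4. The other Igha probe sets had the same order, with 13.24 and 13.51 against 5.45, 5.79 and 5.26 for 1425763_x_at and 12.33 and 12.85 against 5.89, 5.64 and 5.69 for 1429381_x_at. Differences were -8.13 (SE 0.15), -7.88 (SE 0.19) and -6.85 (SE 0.18), each far larger than the SD of either group.

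Jchain, which joins IgA and IgM units into polymers, read 11.13 and 11.75 in controls and 3.56, 4.03 and 4.29 in deficient arrays, a difference of -7.48 (SE 0.27). The kappa variable segment Igkv8-30 read 8.53 and 9.95 in controls and 4.36, 3.94 and 4.26 in deficient arrays (difference -5.05, SE 0.40). Both genes lay below the array median on every deficient array, where RMA compresses differences, so no fold is given.

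**Figure D1:**
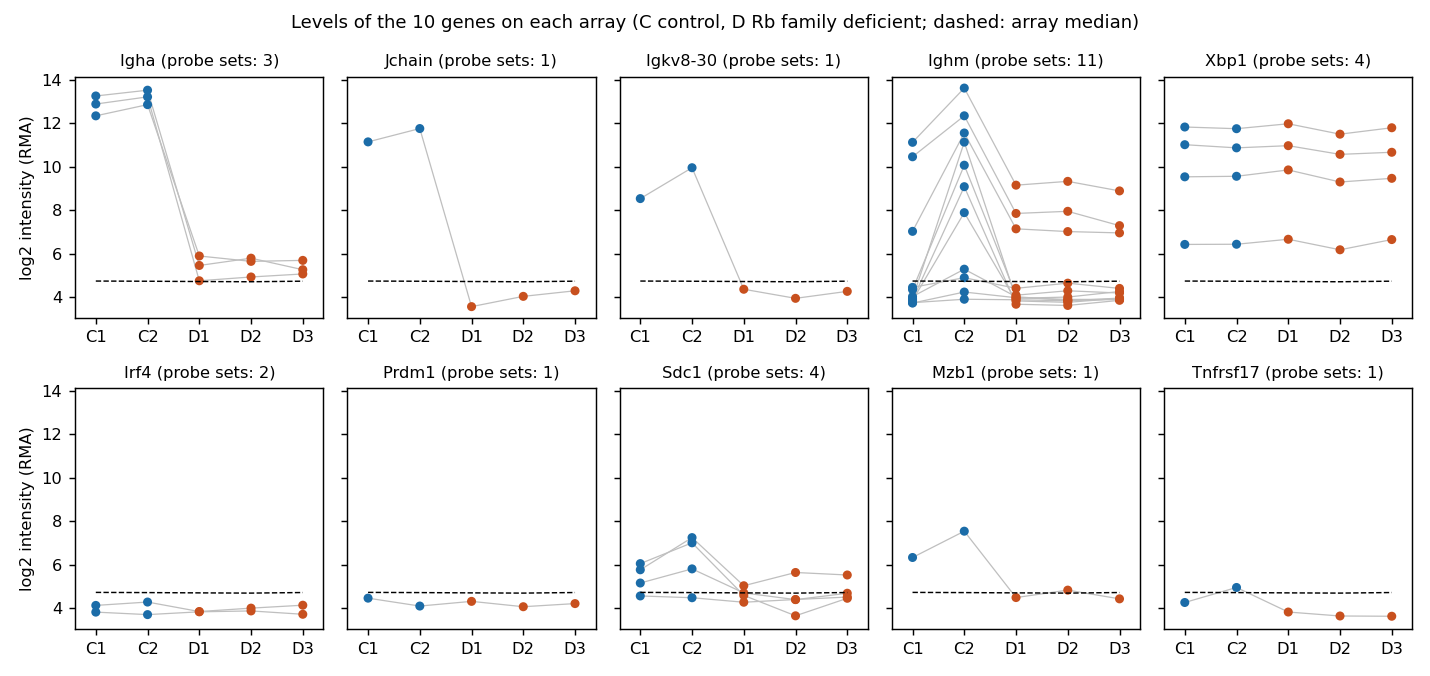
Log2 intensity (RMA) of all 29 probe sets of the 10 genes on each array, with C1 and C2 the controls and D1 to D3 the deficient arrays; grey lines join the values of 1 probe set and the dashed line is the array median. Igha, Jchain and Igkv8-30 are high on both controls, several Ighm probe sets are high on C2 and not on C1, Xbp1 is level across the arrays, and Irf4 and Prdm1 stay below the median.

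The mu heavy chain gave a mixed picture. Its 11 probe sets, all with the symbol Ighm, fell into 3 kinds. On the brightest, 1427351_s_at, controls read 11.11 and 13.61 and deficient arrays 9.14, 9.32 and 8.88, a difference of -3.25 (SE 0.68) that was -2.00 without control 2. On 1427329_a_at they read 10.45 and 12.33 against 7.84, 7.94 and 7.28, a difference of -3.70 (SE 0.54), or -2.76 without control 2. On both, the groups did not overlap, control 2 stood above control 1, and the deficient arrays stayed well above their medians.

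A further 5 Ighm probe sets were high on control 2 alone. On 1425385_a_at control 2 read 11.12, control 1 read 3.93 and the deficient arrays 3.94, 4.0 and 4.26. On 1425247_a_at control 2 read 10.06 and control 1 read 4.34, with 4.09, 4.29 and 4.19 in deficient arrays. The other 3 (1425324_x_at, 1427756_x_at and 1427870_x_at) read 9.07, 7.88 and 11.54 on control 2 against 3.88, 3.85 and 7.02 on control 1. On all 5, control 1 lay close to the deficient arrays: without control 2 their differences were 0.14, -0.15, -0.16, -0.01 and 0.01, against -3.46, -3.01, -2.76, -2.02 and -2.25 with it. The mean fall on those 5 probe sets therefore rests on 1 array. The last 4 Ighm probe sets were dim throughout, with values between 3.73 and 5.28. Nothing here says which part of the mu transcript or which rearranged variable segment each probe set covers.

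The control arrays also differed from each other. Control 2 exceeded control 1 on all 16 probe sets of Igha, Jchain, Igkv8-30 and Ighm, 11 of them of Ighm, where 51.7% of all probe sets did so. This was not particular to immunoglobulin. Of the lists read below, control 2 was the higher for 9 of 9 neutrophil markers and 25 of 34 secretion genes. It was so for only 6 of 18 B cell identity genes and 1 of 8 KLS markers. It was at least 2 log2 units higher on 6 of the 16, all of them Ighm, compared with 28 of 45037 probe sets (0.0622%). At 4 log2 units or more, 9 probe sets were higher on control 2 and 0 on control 1. Of the 9, 6 carried immunoglobulin symbols (5 Ighm and the kappa segment Igkv15-103, with 8.93 against 3.38), 2 were Xist and 1 listed H2-Q5 and H2-K1. That last probe set read 10.33 on control 2, 5.75 on control 1 and between 5.80 and 5.95 on deficient arrays. The part in this of whatever raised Xist on control 2 was not tested.

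**Figure D2:**
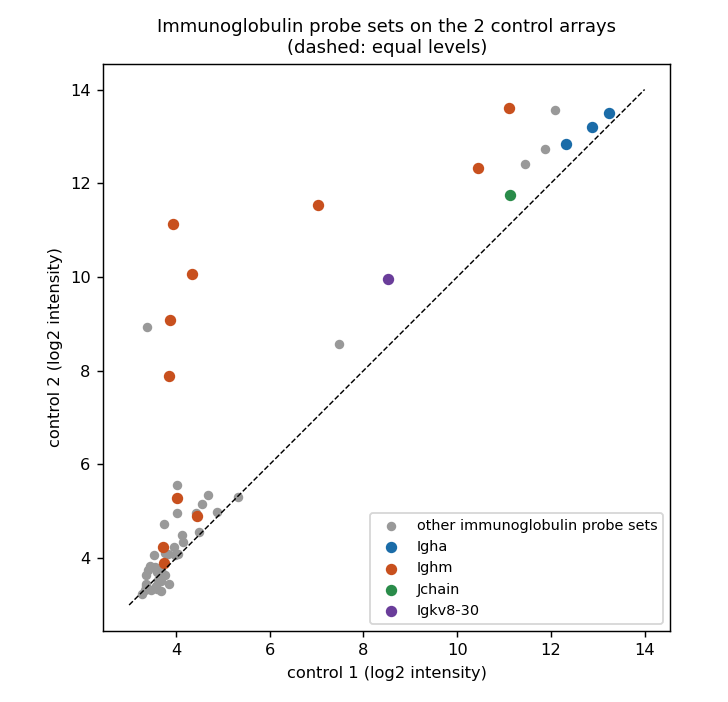
Log2 intensity on control 2 against control 1 for the 16 probe sets of the immunoglobulin members and 41 other immunoglobulin probe sets, with the dashed line marking equal levels. The Igha and Jchain points lie near the line, and 5 Ighm probe sets and 1 other lie at least 4 log2 units above it.

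Upstream sequence was compared for the members found in the RefSeq promoter table (GRCm38.p6), 6 of the 10 genes. The 250 bases before the start site are shown for Jchain, whose level differed most among the 6, for the surface gene Tnfrsf17, for the regulator Xbp1, which was level across the arrays, and for Irf4, which holds a TATA box. Capitals mark the TATA box letters TATAAA, on either strand and at any place in the window. Igha, Ighm, Igkv8-30 and Mzb1 are not shown. The Jchain window is chr5:88527898-88528147 (minus strand), that of Tnfrsf17 chr16:11313559-11313808 (plus), that of Xbp1 chr11:5520391-5520640 (plus) and that of Irf4 chr13:30748983-30749232 (plus).
Jchain: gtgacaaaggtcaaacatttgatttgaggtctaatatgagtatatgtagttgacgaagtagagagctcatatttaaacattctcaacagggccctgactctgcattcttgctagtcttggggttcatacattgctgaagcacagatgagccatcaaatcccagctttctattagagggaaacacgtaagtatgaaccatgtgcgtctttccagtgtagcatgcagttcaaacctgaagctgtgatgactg
Tnfrsf17: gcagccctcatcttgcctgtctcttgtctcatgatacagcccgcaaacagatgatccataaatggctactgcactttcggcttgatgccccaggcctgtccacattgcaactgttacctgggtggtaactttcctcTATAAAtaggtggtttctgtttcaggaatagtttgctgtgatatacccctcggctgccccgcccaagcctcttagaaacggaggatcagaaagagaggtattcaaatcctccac
Xbp1: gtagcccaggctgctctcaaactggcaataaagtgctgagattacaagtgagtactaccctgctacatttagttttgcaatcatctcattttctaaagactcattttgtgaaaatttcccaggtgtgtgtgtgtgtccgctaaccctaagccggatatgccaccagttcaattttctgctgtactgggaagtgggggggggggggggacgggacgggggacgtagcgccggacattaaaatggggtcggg
Irf4: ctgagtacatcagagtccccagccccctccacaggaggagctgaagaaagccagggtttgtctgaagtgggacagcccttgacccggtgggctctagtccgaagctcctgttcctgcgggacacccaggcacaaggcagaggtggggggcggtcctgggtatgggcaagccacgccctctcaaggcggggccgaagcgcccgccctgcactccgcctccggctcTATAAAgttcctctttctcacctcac

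The letters TATAAA were present in 2 of the 6 member windows, 26 bases before the start of Irf4 and 114 before that of Tnfrsf17, and in 12.4% of 32851 windows of the table. The search took no account of distance to the start, so a match is a match of letters only. GC content ran from 42% for Jchain to 66% for Sdc1. The octamer ATGCAAAT, known from immunoglobulin promoters, was in 0 of the 6 windows and in 1.6% of all. A PU.1 site (GAGGAAGT) was in 0 and 2.44%, an E2F site (TTTGGCGC) in 0 and 0.417%, and the unfolded protein response element core TGACGTGG in 0 and 0.563%. Each was searched on both strands, and none overlapped another in the member windows. A missing match says no more than that these letters are not in these windows.

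Of the 3 plasma cell regulators, Xbp1 was the one bright enough to be read, and it showed no fall beside that of the immunoglobulin transcripts. Xbp1, which drives the secretory apparatus and is also expressed in many other cells, was bright and level: its brightest probe set (1437223_s_at) read 11.82 and 11.74 in controls and 11.97, 11.49 and 11.78 in deficient arrays. The difference was -0.03 (SE 0.16), and over the 4 Xbp1 probe sets it ran from -0.21 (SE 0.15) to 0.07 (SE 0.18), with the groups overlapping on all 4. Leaving out each array in turn kept all 4 between -0.32 and 0.23.

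Irf4, the factor that commits B cells to the plasma cell fate, was dim on every array. Its probe set 1421173_at read 4.14 and 4.29 in controls and 3.86, 4.01 and 4.15 in deficient arrays, and 1421174_at stayed between 3.72 and 3.89. Prdm1, the BLIMP-1 gene, read 4.47 and 4.11 in controls and 4.33, 4.08 and 4.22 in deficient arrays. All 3 probe sets lay below the array median on all 5 arrays, as did 45% of all probe sets. At such levels an array cannot tell a low transcript from none, so neither a presence nor a fall of Irf4 or Prdm1 could be measured, on the controls rich in Igha as on the others.

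The surface and secretion genes were read next. Mzb1, an endoplasmic reticulum protein that helps assemble and secrete antibody, read 6.34 and 7.55 in controls and 4.50, 4.84 and 4.44 in deficient arrays (difference -2.35, SE 0.35). The groups did not overlap, and the deficient values were near the array median. Without control 2 the difference was -1.75 and without control 1 it was -2.96.

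Sdc1, syndecan-1, had 4 probe sets that disagreed in size. 1437279_x_at read 6.06 and 7.02 in controls and 4.60, 3.66 and 4.47 in deficient arrays, a difference of -2.30 (SE 0.38). 1415943_at read 5.78 and 7.26 against 5.04, 5.65 and 5.54 (-1.11, SE 0.44), so its lower control lay just above deficient 2, and without control 2 the difference was -0.37. The third, 1415944_at, differed by -0.89 (SE 0.22), and without control 2 by -0.56. 1448158_at differed by -0.13 (SE 0.12), with groups that overlapped and values no higher than 4.57. Tnfrsf17, the receptor BCMA that supports plasma cell survival, read 4.27 and 4.96 in controls and 3.84, 3.65 and 3.64 in deficient arrays (-0.91, SE 0.21). Control 2 was the single array on which it rose above the median. Without control 2 its difference was -0.56.

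**Figure D3:**
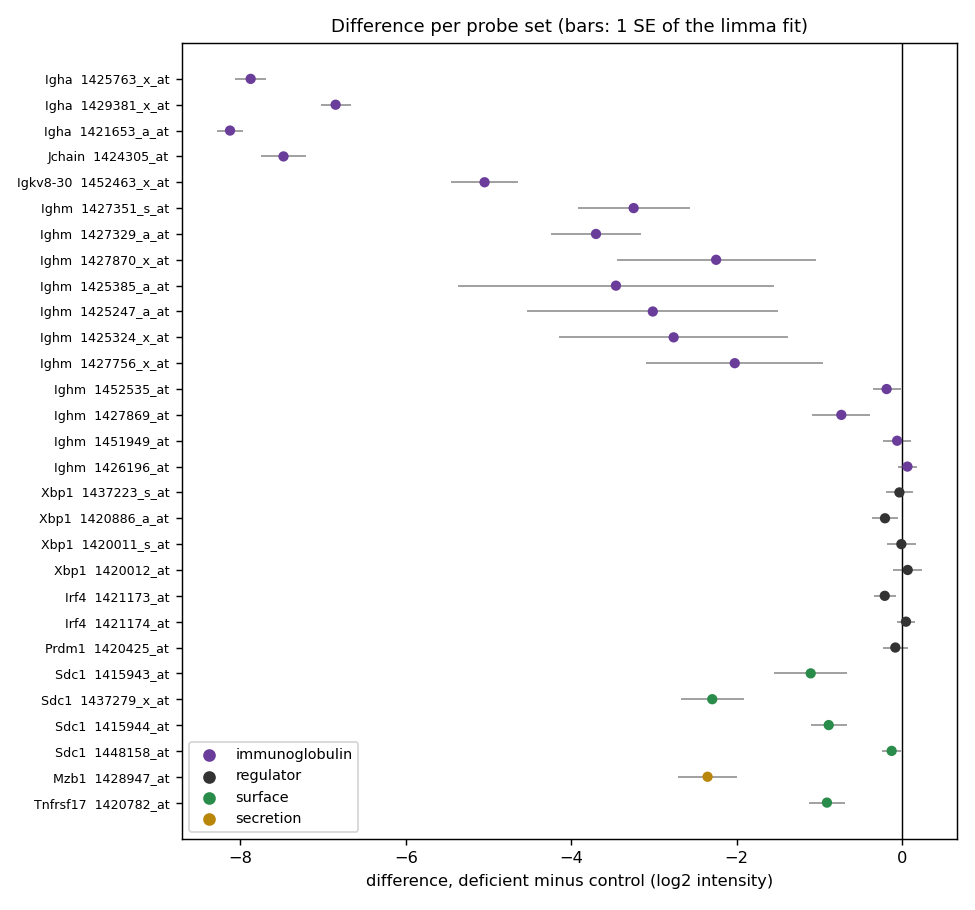
Difference between deficient and control arrays (log2 intensity) for each of the 29 probe sets, with bars of 1 SE of the limma fit and colours for the role of the gene. Igha and Jchain lie between -8.13 and -6.85, Ighm is spread from -3.70 to 0.06 with wide bars, and the regulators lie around 0.

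Over the 29 probe sets, 15 had all deficient arrays below both controls and 0 had them all above; of all probe sets, 15.2% were below and 15.4% above. In the limma fit, 5 of the 29 (3 of Igha and 1 each of Jchain and Igkv8-30) were called lower at a Benjamini-Hochberg adjusted p under 0.05, where 0.326% of all 45037 probe sets were (0.491% in either direction). Since the list was drawn up from this contrast, the choice of genes decided these counts and nothing is read from them. By role, the median difference was -3.13 over 16 immunoglobulin and joining chain probe sets, -0.91 over 5 surface probe sets and -0.03 over 7 regulator probe sets. Over all probe sets it was 0.00266. These medians weigh probe sets and not genes, and nothing is read from them either. Of the 16, 11 were of Ighm, and of the 7, 3 were the dim ones of Irf4 and Prdm1, where no fall could be measured.

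The remaining immunoglobulin probe sets, which are no members, were read next. Of 41, 4 were lower in deficient arrays (limma, Benjamini-Hochberg adjusted p under 0.05; background 0.326%), 0 were higher (background 0.164%) and 37 did not pass; before adjustment, 7 were lower and 0 higher at that threshold, against 6.82% and 7.28% of all probe sets. The 4 belonged to the kappa light chain locus. The largest fall was on 1427455_x_at, with 12.08 and 13.57 in controls and 4.72, 4.54 and 5.86 in deficient arrays (-7.78, SE 0.56, adjusted p = 0.0126). It and 2 others (-6.78 and -7.09) list the same 5 kappa symbols, Igkv8-30 among them, so they are not independent of that member. The fourth, 1452557_a_at, carries the locus symbol Igk and read 7.48 and 8.57 against 4.01, 4.24 and 4.54 (-3.76, SE 0.34, adjusted p = 0.0216).

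With 1 array left out, the number called among the 41 was 0 without deficient 1 or without deficient 2, 2 without control 2, and 3 without control 1 or without deficient 3. Igkv15-103, which was not called with all arrays, was 1 of the 3 without control 1. The 4 named probe sets kept differences of -3.22 or below in each of those fits. Most of the other 37 were dim, 28 of them below the median on every array, and their median difference was -0.11. Next to the Igk probe set, the largest differences among those with 1 symbol were Igkv15-103 (-2.71, SE 1.47), which was high on control 2 alone, Igkv14-111 (-0.59, SE 0.29), Iglv1 (-0.58, SE 0.22) and Igkv19-93 (-0.46, SE 0.20). None of those 4 passed the threshold with all arrays, and without control 2 their differences were 0.06, -0.11, -0.25 and -0.16. The gamma heavy chain gene Ighg3 had 4 probe sets of its own, with differences from -0.30 to -0.05, none of which passed.

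Other genes known from plasma cells were read from a list of 25, of which 22 were measured, with 1 probe set per gene. Of the 22, 1 fell, 0 rose and 21 did not pass (background 1.41% of 18193 genes lower and 0.83% higher), while an unadjusted p under 0.05 was met by 5 that were lower and 0 higher (9.86% and 8.79% of all genes). The list median was -0.17 against -0.01 over all genes, and 14 of the 22 had lower means. All deficient arrays lay below both controls for 7 and above both for 2 (18.6% and 16.5% of all genes). The gene that fell was Pou2af1, the octamer coactivator OBF-1 that B cells and plasma cells need for antibody responses. It read 5.64 and 6.06 in controls and 3.41, 3.65 and 3.41 in deficient arrays (-2.36, SE 0.17, limma adjusted p = 0.00471), and each of the 5 fits that drop an array called it too. Its mean over the 5 arrays (4.43) lies below the median probe set, so a filter on dim probe sets leaves it out and the list then has 0 calls.

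Next by p-value were Cd28, a costimulatory receptor (-0.66, adjusted p = 0.106), Glcci1 (-0.79, 0.112), Ell2, the elongation factor that favours secreted heavy chain (-1.32, 0.204), and the peroxiredoxin Prdx4 (-0.50, 0.224). Of those, Cd28 lay below the array median on every array. Another probe set of Ell2 differed by 0.03 and another of Glcci1 by 0.13.

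Of 34 measured genes of endoplasmic reticulum secretion and the unfolded protein response, 3 rose (background 0.83%), 0 fell (1.41%) and 31 did not pass, while an unadjusted limma p under 0.05 was met by 14 that were higher and 1 lower (8.79% and 9.86% of all genes). The 3 were Hyou1, a chaperone of the endoplasmic reticulum (10.18 ± 0.11 to 11.04 ± 0.09, adjusted p = 0.0299), Sec24d, a coat protein of export vesicles (8.77 ± 0.04 to 9.52 ± 0.07, 0.0352), and Syvn1, the ubiquitin ligase HRD1 (8.05 ± 0.02 to 8.77 ± 0.07, 0.0357). Those are the brightest probe sets: over its 3 probe sets Hyou1 differed by 0.20 to 0.86, and over its 2 Syvn1 by 0.41 to 0.72. All deficient arrays lay above both controls for 20 of the 34 genes, as they did for 16.5% of all genes, and the list median was 0.34. Ddit3, the stress factor CHOP, differed by -0.92 (adjusted p = 0.0528) and the translocon gene Ssr1 by 0.53 (0.0667). With any 1 array left out, 0 of the 34 passed; Hyou1 then ran from 0.78 to 0.94, Sec24d from 0.72 to 0.79 and Syvn1 from 0.69 to 0.76.

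B cell identity genes were mostly dim. Of 18 measured, 1 fell (background 1.41%), 0 rose (0.83%) and 17 did not pass, while an unadjusted limma p under 0.05 was met by 4 that were lower and 0 higher (9.86% and 8.79% of all genes). The list median was -0.24, all deficient arrays lay below both controls for 9 genes (18.6% of all genes did so), and 8 of the 18 lay below the median on every array, among them Pax5 (4.53 to 4.61), the master regulator of B cells. The gene that fell was Blnk, an adaptor of B cell receptor signalling, with 7.51 and 7.73 in controls and 4.06, 3.80 and 4.31 in deficient arrays (-3.57, SE 0.18, adjusted p = 0.00201), and each of the 5 fits that drop an array called it too. Cd79a, part of the B cell receptor, differed by -0.76 (adjusted p = 0.0834), Cd22 by -0.51 (0.0972), Ebf1 by -0.72 (0.143) and Spib by -1.02 (0.286). Another probe set of Cd22 differed by 0.10. Without control 2 the difference of Ebf1 was -0.38, and without control 1 that of Spib, whose controls read 5.86 and 4.26, was -0.22. Without control 2, 3 of the 18 passed.

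**Figure D4:**
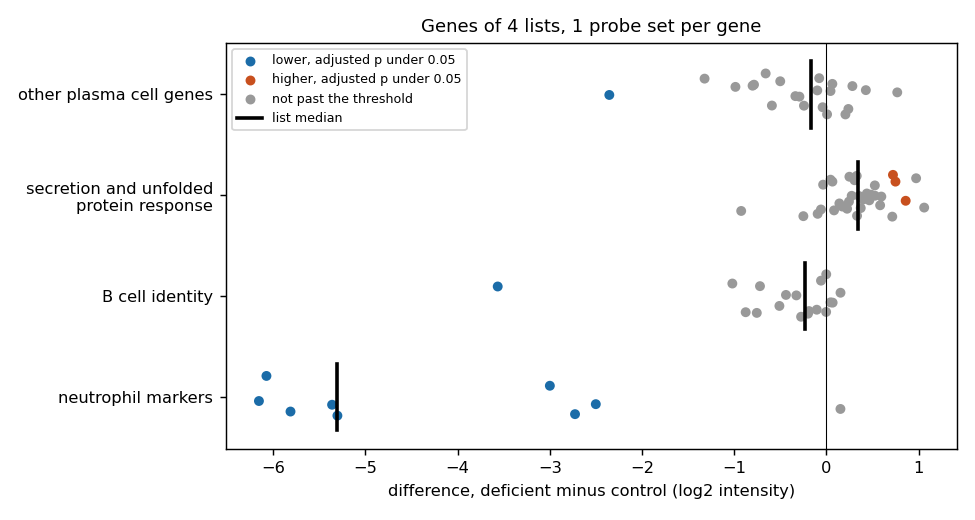
Difference between deficient and control arrays (log2 intensity) of single genes in 4 lists, 1 probe set per gene, with coloured points past an adjusted p of 0.05 and black bars at the list medians of -0.17, 0.34, -0.24 and -5.30. Pou2af1 and Blnk stand apart to the left of their lists, most secretion genes lie to the right of 0, and 8 neutrophil markers lie far to the left.

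Genes with profiles near that of Igha were then looked for. Profiles were compared over the 5 arrays by the root mean square distance between log2 values centred on each gene's own mean, with the brightest probe set of each gene. Of 18192 genes, Jchain was the nearest to Igha (distance 0.39). Igkv8-30 ranked 8 (1.46), Ighm 23 (2.38), Mzb1 51 (2.72), Sdc1 343 (3.35) and Tnfrsf17 454 (3.42), while Xbp1 ranked 8744. These ranks describe genes that were chosen for their fall over the same arrays and support nothing, and Jchain and Igkv8-30 lay below the median on every deficient array. Irf4 and Prdm1, dim on every array, are not ranked. Probe sets that list several symbols did not enter this search, among them the 3 with 5 kappa symbols described above. Whether those lie nearer to Igha than the genes named next is therefore not shown by the ranking. Among genes with a probe set of their own, the 5 nearest outside the list were Ngp (0.90), Camp (0.97), S100a9 (1.04), S100a8 (1.30) and Ltf (1.40). All 5 are known from neutrophil granules or cytoplasm. The distance rests on 5 arrays in 2 groups. Of those 5 genes, 3 (Ngp, S100a9 and S100a8) were also among the 5 highest Pearson correlations of genes that differed by at least 4 log2 units. Both measures pick genes with large falls in this same contrast, so the overlap is no separate support.

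Markers of other cell types were therefore summed on each array, as linear intensity over the list. Of all genes, 1.41% were called lower and 0.83% higher, the background for the counts of each list below. Neutrophil markers came to 49188 and 59955 in controls and between 1357 and 2367 in deficient arrays, with 8 of 9 measured genes lower and 1 not past the threshold. The brightest were S100a8 (13.97 ± 0.16 in controls, 8.67 ± 0.78 in deficient arrays) and Ngp (13.84 ± 0.15 and 7.69 ± 0.55). The neutrophil list holds all 5 genes named above as near to Igha, so its count is no separate observation. Macrophage and dendritic cell markers came to 7778 and 5077 against 2245 to 2723, with 1 of 10 lower and 9 not past the threshold. The 1 was Cd74 (-2.71, limma adjusted p = 0.0301). Of the fits that left out 1 deficient array, only that without deficient 3 called it. Without control 1 it differed by -2.44 and without control 2 by -2.97. An unadjusted limma p under 0.05 was met by 8 that were lower and 0 higher (9.86% and 8.79% of all genes). All deficient arrays lay below both controls for 8 of the 10 (18.6% of all genes), and the list median was -0.74. The brightest genes of this list were Csf1r (difference -0.77) and H2-Aa (-2.70). For T and NK cell markers the sums were 1721 and 2550 against 2434 to 3061 (2 of 10 lower, 8 not past the threshold), with Nkg7 (difference 0.63, not past the threshold; 0.38 without control 1) and Klrd1 (-2.36, lower) the brightest in controls. Nkg7 carried most of that sum: without it the sums were 361 and 622 in controls and 228 to 250 in deficient arrays. Of the 10 genes, 8 had lower means, and the list median was -0.62. Cd3g and Gzma, 2 of the 8, were high on control 2 alone. Cd3g read 3.79 and 7.26 in controls and at most 3.79 in deficient arrays, and Gzma 4.45 and 6.70 against at most 4.55. Without control 2 Gzma differed by -0.34. For erythroid markers the sums were 3008 and 4330 against 617 to 5240 (0 of 6 past the threshold, of which 3 lay below the median on every array), with Car1 (-2.18) and Klf1 (-0.55) the brightest. The groups overlapped for both: without deficient 2, Car1 differed by -0.79, and without control 2, Klf1 differed by -0.05. Stroma and endothelium markers summed to at most 309 on any array, with 0 of 10 past the threshold and 6 below the median on every array; Col1a2 (0.01) and Sparc (0.57) were the brightest. B cell markers summed to 1868 and 1675 in controls and to between 1088 and 1383 in deficient arrays. The KLS list came to 16631 and 13859 in controls and 13551 to 16429 in deficient arrays, with 1 of 8, Procr, lower. No fit that left out 1 deficient array made that call, and without control 1 or control 2 Procr differed by -1.40 and -1.84. Ly6a, the gene of the Sca-1 marker, has no probe set with a symbol of its own. The part of these cell types in the immunoglobulin values was not tested, and in bulk RNA fewer cells of a type and less RNA per cell cannot be told apart.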

How the data were processed

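RNA of sorted KLS cells was read on Affymetrix arrays after biotin labelling, per the labels' protocols. The authors deposited 1 linear intensity per probe set and array, made with RMA per the submitters' processing notes; its version is not given in the sources used here. RMA gives all arrays a common distribution, so a shift of all transcripts would not be seen. Log2 was taken here, 64 AFFX control probe sets were left out, and limma 3.58.1 in R 4.3.3 (lmFit, eBayes, no covariate, two-sided) was fitted to all 5 arrays over 45037 probe sets, and again with the brightest probe set of each of 18193 genes. Benjamini-Hochberg adjustment ran over all of them, with a threshold of 0.05. The fit was tested on simulated data. Symbols came from GEO's platform annotation: 34945 probe sets had 1 symbol, 932 several and 9160 none listed. The number of arrays limits the precision.

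Members and lists were chosen with earlier results of these data known. The text names all member probe sets, up to 5 genes of each plasma cell, secretion and B cell list by smallest p, the 5 largest differences among other immunoglobulin probe sets with 1 symbol, the 2 markers of a list brightest in controls and the 5 genes nearest to Igha. Ighg3, Pax5, Kit, Procr, Gata2, Cd3g and Gzma and the sex-linked genes were chosen after seeing the data. So were the E2F, unfolded protein response and TATA motifs and the T and NK cell marker sum without Nkg7. Bare Igk symbols fall outside the wording of the rule for other immunoglobulin probe sets and were added. Alternatives were other normalizations, filters, priors and weights, a pseudocount of 16, the replicate number as a block and each array left out.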

Additional observations from a re-analysis of the deposited data

How the results depend on the processing

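Over all probe sets, 147 were lower and 74 higher; the counts were 260 and 141 with an intensity trend, 497 and 451 at an adjusted p under 0.1, and ran from 21 to 73 and from 2 to 5 with 1 array left out. The other immunoglobulin probe sets called lower went from 4 to 1 without probe sets ending in _x_at or _s_at, which removes the 3 that list 5 symbols, to 3 without the symbol Igk (chosen after seeing the data), and to between 0 and 3 with 1 array left out. Called secretion genes went from 3 higher to 1 without _x_at and _s_at probe sets, to 5 with an intensity trend and to 0 with any array left out, and from 0 lower to 1 with cyclic loess or without dim probe sets. Plasma cell genes called lower went from 1 to 0 without dim probe sets, and B cell genes from 1 to 2 with an intensity trend and to between 1 and 3 with 1 array left out. The cause of these changes was not tested where none is named. With the replicate number as a block, 15 probe sets were lower and 0 higher, 2 other immunoglobulin probe sets were lower, 0 plasma cell genes and 5 of the 9 neutrophil markers (8 without the block) were lower and 0 secretion genes were higher. The numbers share no pairing in the data, since deviations of same-numbered arrays correlated at -0.05 and -0.02. With the block Pou2af1 had a limma adjusted p of 0.0516. With a pseudocount of 16, the difference of Jchain was -6.46 and that of Mzb1 -1.81.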
